A study of Mus musculus with 8 samples.

Results

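The Ly49 receptor family was followed across 3 subsets of thymic natural killer T (NKT) cells of C57BL/6 mice, in Ezh2-KO and WT animals. NKT cells are T cells whose receptor sees lipids shown by CD1d, and Ezh2 is the enzyme of the Polycomb complex PRC2 that methylates histone H3 at silent genes. The family was taken as the listed genes Klra1 to Klra10, and all 10 had read counts among the 27179 genes counted. The groups were Ezh2-KO CD44- NK1.1- and WT CD44- NK1.1- (1 library each), Ezh2-KO CD44+ NK1.1- and WT CD44+ NK1.1- (2 biological replicates each), and Ezh2-KO CD44+ NK1.1+ and WT CD44+ NK1.1+ (1 library each). Thymic NKT cells are thought to gain CD44 first and NK1.1 later as they mature. The sources used here do not say how or in which cells Ezh2 was deleted, or how old the mice were.

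Ly49 receptors are lectin-like surface proteins that bind MHC class I molecules or related ligands, and they are best known from mouse natural killer (NK) cells. Most carry an inhibitory motif that recruits phosphatases. The activating ones have no such motif and signal through the adaptor DAP12, encoded by Tyrobp. An NK cell expresses only some of the family's genes, and in thymic NKT cells Ly49 receptors are known mainly from NK1.1+ cells.

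Of the 10 genes, 9 lie in 1 cluster on the minus strand of mouse chromosome 6 (build mm10, 129898988 to 130386874, a span of 487.9 kb) in the order Klra5, Klra6, Klra4, Klra8, Klra9, Klra7, Klra10, Klra3, Klra1. Klra2 lies 812.1 kb beyond. The starts of 8 of the genes share a stretch of 64 bases, found as the best match to Klra5 in RefSeq windows (build GRCm38.p6) that run from 250 bases before to 50 after each listed start. Shown here are the stretches of Klra4 and Klra8, the genes that differed between genotypes, and of their neighbours Klra5, Klra6 and Klra7, which had the largest called steps into the NK1.1+ subset. Each is on the minus strand of chromosome 6, and capitals mark bases that differ from Klra5. The coordinates are chr6:129913257-129913320 for Klra5, chr6:130027016-130027079 for Klra6, chr6:130067293-130067356 for Klra4, chr6:130129921-130129984 for Klra8 and chr6:130233354-130233417 for Klra7.
Klra5: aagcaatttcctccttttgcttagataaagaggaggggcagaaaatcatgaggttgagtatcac
Klra6: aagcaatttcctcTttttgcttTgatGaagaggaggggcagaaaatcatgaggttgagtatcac
Klra4: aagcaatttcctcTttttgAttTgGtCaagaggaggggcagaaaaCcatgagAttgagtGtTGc
Klra8: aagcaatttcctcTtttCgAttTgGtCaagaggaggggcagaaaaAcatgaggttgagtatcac
Klra7: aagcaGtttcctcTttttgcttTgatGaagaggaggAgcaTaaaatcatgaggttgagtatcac
Klra4 and Klra8 matched at 90.6% of these bases (6 differences), and Klra5 and Klra6 at 95.3% (3 differences). Across the 8 genes the pairwise identity ran from 78.1% to 96.9%. The windows of Klra1 and Klra10 held no such stretch, their best matches to Klra5 being 39.1% and 40.6%. Short motifs were also searched on both strands of the same windows. The RUNX motif TGTGGT was found only in the window of Klra1, against 16.8% of the 32851 windows of all genes. The TCF and LEF motif CTTTGA was found in the windows of Klra6 and Klra7, against 16.0% of all windows, and the T-box motif AGGTGT in none, against 13.7%. CG pairs numbered 0 to 4 per window, below the median of 7 over all windows.

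Library depth ranged from 20308745 to 22995090 counts. Levels are given as CPM, read counts brought to a common library depth with TMM scaling (trimmed mean of M values). A gene with no reads could lie as high as 3 counts, which is 0.129 to 0.151 CPM. Intervals and limits cover counting error only. Ezh2 itself measured 40.4 to 83.3 CPM in the Ezh2-KO libraries, against 57.2 to 136 CPM in the WT libraries, and each Ezh2-KO library lay below WT of its subset. Its log2 fold change in CD44+ NK1.1- cells was -0.63 (SE 0.12, edgeR adjusted p = 0.0407, but 0.324 without Ezh2-KO replicate 1 and 0.44 without replicate 2). A count over the whole gene does not show which part was deleted. The NKT markers summed to 1622 to 6903 CPM in Ezh2-KO and 1865 to 7169 CPM in WT libraries, with none of 8 at 0.

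The WT CD44+ NK1.1- replicates lay far apart for this family. The summed Ly49 level was 397 and 373 CPM in the Ezh2-KO pair, close together, whereas the WT pair had 279 CPM (replicate 1) and 118 CPM (replicate 2). Among genes above 1 CPM, 0.0760% differed over 2-fold within the Ezh2-KO pair and 2.5% within the WT pair. The ratio of replicate 1 to replicate 2 lay between 0.594 (Klra10) and 1.4 (Klra6) in Ezh2-KO, and reached 5.86 for Klra5, 6.68 for Klra9 and 6.99 for Klra8 in WT. Klrb1c, which encodes NK1.1, was 3.17 times higher in WT replicate 1 than in WT replicate 2. The 6 immediate early genes read here, which cells switch on soon after a stimulus, summed to 263 and 250.4 CPM in Ezh2-KO and to 1018 and 333 CPM in WT. The part of these differences in the results was not tested.

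Reads of paralogs can be shared. Of the 100-base stretches in each gene's transcripts, 14.4% of those of Klra8 occurred in another Klra gene, as did 5.25% of Klra10, 4.07% of Klra9, 1.83% of Klra7 and 1.78% of Klra3, and none of Klra1, Klra2, Klra4, Klra5 and Klra6. For 50-base stretches the shares were 39.8% for Klra10, 33.1% for Klra8, 31.5% for Klra9 and 20.7% for Klra3, against 4.35% for Klra4 and 0.655% for Klra5. The read length is not given in the sources used here, so the levels of Klra8, Klra9, Klra10 and Klra3 are less certain than those of Klra4, Klra5 and Klra1.

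Summed Ly49 RNA stood higher in each later subset in both genotypes. In CD44- NK1.1- cells the 10 genes came to 16.5 CPM in Ezh2-KO and 14.3 CPM in WT. In CD44+ NK1.1- cells they averaged 385 ± 16.9 CPM in Ezh2-KO and 198 ± 114 CPM in WT (SD, n = 2 each). CD44+ NK1.1+ cells had 3006 CPM in Ezh2-KO and 1277 CPM in WT, with 1 library each. The ratio of Ezh2-KO to WT was thus 1.16, 1.94 and 2.35 in the 3 subsets in that order, and the Ezh2-KO and WT libraries of CD44+ NK1.1- cells did not overlap. The ratio in CD44+ NK1.1- cells was 3.27 without WT replicate 1 and 1.38 without WT replicate 2, so its place in that order turned on 1 library. These are bulk libraries, so fewer cells with Ly49 RNA and less RNA per cell cannot be told apart.

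**Figure D1:**
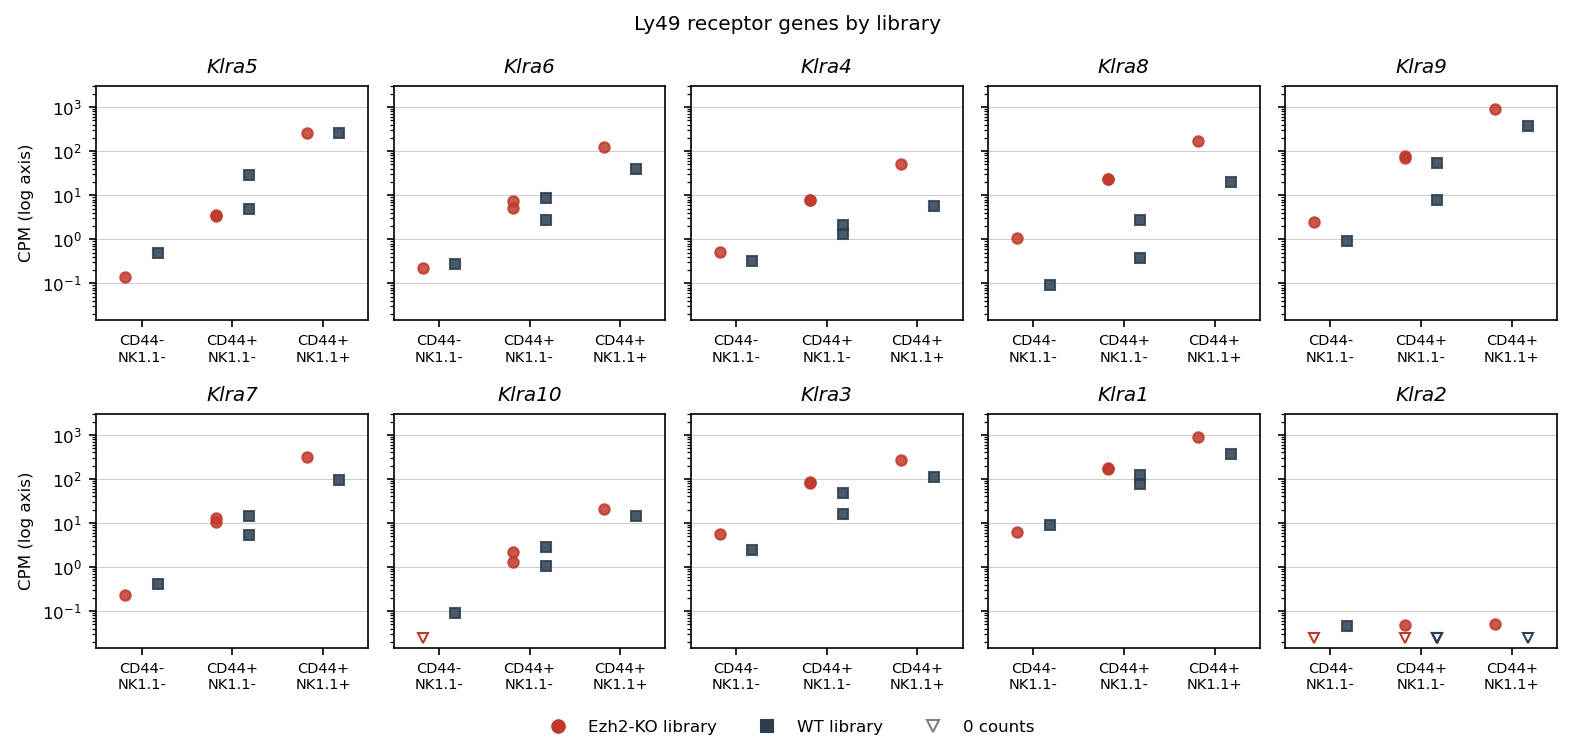
Level of each Ly49 gene in CPM on a log axis in the 3 NKT subsets, with 1 point per library (Ezh2-KO circles, WT squares, open triangles for 0 counts). Klra4 and Klra8 lie higher in Ezh2-KO in each subset, at 50.4 and 169.7 CPM in Ezh2-KO CD44+ NK1.1+ cells against 5.64 and 19.6 CPM in WT, whereas Klra5 lies at 257 CPM in Ezh2-KO and 265 CPM in WT.

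Whether Ezh2 loss alters the family was asked first in CD44+ NK1.1- cells, the subset with replicates. Of the 9 genes with enough counts to be tested, 1 rose and none fell at an adjusted p under 0.05, where 4.94% of the 13794 genes tested were called and 3.78% were called higher. That gene was Klra4, one of the family's activating receptors. The fitted log2 fold changes of the 9 had a median of 0.80, against -0.01 over all genes tested. In 5 members both Ezh2-KO libraries were above both WT libraries (26.5% of genes tested did this), and in 1, Klra5, both were below (25.8%).

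Klra4 (gene identifier 16635, chromosome 6, 130043730 to 130067301) encodes Ly49D, an activating receptor that pairs with DAP12. It had 7.78 and 7.88 CPM in Ezh2-KO CD44+ NK1.1- cells, against 2.12 and 1.33 CPM in WT. Both Ezh2-KO libraries were above both WT libraries by far more than either pair differed. The log2 fold change was 2.18 (SE 0.23, edgeR adjusted p = 0.00725). The call was lost without Ezh2-KO replicate 1 (2.19) or replicate 2 (2.17), though the size of the change hardly moved. In those fits the WT pair alone gave the spread, and far fewer of all genes were called.

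The NK1.1+ subset showed a larger gap, with Klra4 at 50.4 CPM in Ezh2-KO and 5.64 CPM in WT, a ratio of 8.93 (95% counting interval 7.37 to 10.9). The log2 fold change there was 3.16 (SE 0.30, edgeR adjusted p = 0.0169) with the spread taken from the replicated groups. That call was also lost without either Ezh2-KO CD44+ NK1.1- replicate. Those libraries lie outside this contrast and entered it only through the spread, which the WT pair alone then gave. Far fewer of all genes were called in those fits. CD44- NK1.1- cells had 0.504 CPM in Ezh2-KO and 0.315 CPM in WT, from 11 and 7 counts, and the interval of the ratio (0.567 to 4.87) covered 1. Over the 3 subsets together Klra4 rose by 2.43 (SE 0.30, edgeR adjusted p = 0.0037). That call held without any single library, with adjusted p between 0.00056 and 0.024.

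Klra8 (gene identifier 16639, chromosome 6, 130115226 to 130129898) encodes Ly49H, the activating receptor that binds the m157 protein of mouse cytomegalovirus. Its values were 23.5 and 22.9 CPM in Ezh2-KO CD44+ NK1.1- cells, against 2.70 and 0.387 CPM in WT. The groups did not overlap, but the WT libraries differed from each other by 6.99 times. The log2 fold change of 3.92 (SE 0.78) did not pass the threshold (edgeR adjusted p = 0.11). It was 5.88 without WT replicate 1 and 3.10 without WT replicate 2. Both passed the threshold in fits whose spread came from the Ezh2-KO pair alone, where far more of all genes passed. DESeq2 (adjusted p = 0.0108) and limma-voom (adjusted p = 0.0252) also called Klra8 in this subset.

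Klra8 in CD44+ NK1.1+ cells measured 169.7 CPM in Ezh2-KO and 19.6 CPM in WT, a ratio of 8.67 (7.82 to 9.63). The CD44- NK1.1- libraries had 24 counts in Ezh2-KO and 2 in WT, a ratio of 12.2 with an interval of 3.04 to 107. Neither single-library comparison passed the threshold (edgeR adjusted p = 0.426 and 0.814). Over the 3 subsets Klra8 rose by 3.55 (SE 0.46, edgeR adjusted p = 0.00896). That call held without any single library but was lost when the 3 genotype effects were averaged instead of fitted as 1 (3.52, adjusted p = 0.125).

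Over the 3 subsets, Klra4 and Klra8 were the only 2 of 9 members called by edgeR, and both are activating receptors. The share of genes called higher in this fit was 6.43%, and 11.3% were called in either direction. Median log2 fold change was 0.78 over the members and -0.01 over all genes tested. The 4 members Klra4, Klra8, Klra9 and Klra3 lay above WT in each subset, with no overlap of libraries, as did 15.5% of the genes tested.

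Both pseudogenes of the cluster with enough reads were also called higher over the 3 subsets. Klra14-ps had 1.86 and 1.98 CPM in Ezh2-KO CD44+ NK1.1- cells, against 0.18 and 0 CPM in WT. Its log2 fold change was 4.36 (edgeR adjusted p = 0.0207) there and 3.37 (adjusted p = 0.0043) over the 3 subsets. Klra14-ps is the gene that shares most with Klra8, 13.7% of whose 100-base stretches it holds, so the levels of this pair are uncertain. Klra13-ps had 8.83 and 11.3 CPM in Ezh2-KO and 2.66 and 0.645 CPM in WT, with a log2 fold change of 2.35 (adjusted p = 0.0117) over the 3 subsets. Averaging the 3 genotype effects ended both calls over the subsets (adjusted p = 0.0873 for Klra14-ps and 0.26 for Klra13-ps), and leaving out Ezh2-KO CD44+ NK1.1- replicate 2 ended that of Klra13-ps (adjusted p = 0.0515). In CD44+ NK1.1- cells alone, Klra14-ps was no longer called once either Ezh2-KO replicate was left out (adjusted p = 0.123 without replicate 1 and 0.127 without replicate 2).

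**Figure D2:**
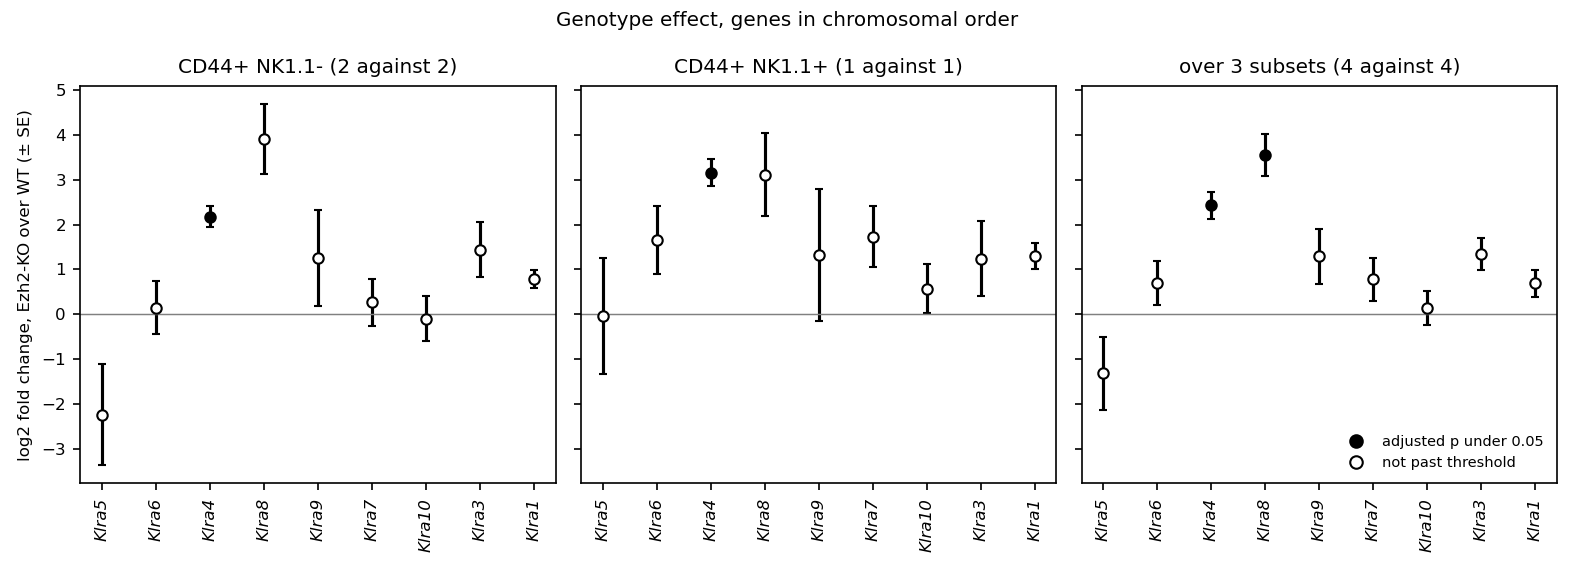
Log2 fold change of Ezh2-KO over WT with its standard error for 9 Ly49 genes, in chromosomal order, in CD44+ NK1.1- cells, in CD44+ NK1.1+ cells and over the 3 subsets. Filled points, at 2.18, 3.16 and 2.43 for Klra4 and at 3.55 for Klra8 over the subsets, passed an edgeR adjusted p of 0.05, and error bars of most other genes are wide.

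The inhibitory receptors did not pass the threshold between genotypes in edgeR with all libraries. Klra1 (gene identifier 16627), which encodes Ly49A, had 177 and 168 CPM in Ezh2-KO CD44+ NK1.1- cells, against 120.2 and 78.5 CPM in WT. The Ezh2-KO libraries were higher, with a log2 fold change of 0.80 (SE 0.20, edgeR adjusted p = 0.0963). DESeq2 called it (adjusted p = 0.00142), and the change was 1.14 without WT replicate 1 and 0.52 without WT replicate 2. Klra1 in CD44+ NK1.1+ cells measured 891 CPM in Ezh2-KO and 363 CPM in WT, which DESeq2 called (adjusted p = 0.000255) and edgeR and limma-voom did not. Its change over the 3 subsets was 0.69 (SE 0.30, edgeR adjusted p = 0.211). There limma-voom called it (0.88, adjusted p = 0.0356), and edgeR called it without the Ezh2-KO CD44- NK1.1- library (0.97, adjusted p = 0.0236) or the WT one (0.95, adjusted p = 0.0242).

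Klra3 (gene identifier 16634) encodes Ly49C, an inhibitory receptor for the H-2Kb molecule of C57BL/6 mice. It had 87.2 and 82.6 CPM in Ezh2-KO CD44+ NK1.1- cells, against 46.8 and 15.7 CPM in WT. The groups did not overlap, and the log2 fold change was 1.44 (SE 0.61, edgeR adjusted p = 0.33). Without WT replicate 1 it was 2.43, and without WT replicate 2 it was 0.86. Over the 3 subsets it was 1.35 (SE 0.35, edgeR adjusted p = 0.07), which DESeq2 (adjusted p = 0.00677) and limma-voom (adjusted p = 0.0185) called.

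Klra9 (gene identifier 16640) encodes Ly49I, also inhibitory. It had 76.6 and 69.9 CPM in Ezh2-KO CD44+ NK1.1- cells, against 53.4 and 8.0 CPM in WT. WT replicate 1 lay close to the Ezh2-KO libraries and WT replicate 2 far below them. The log2 fold change of 1.26 (SE 1.07, edgeR adjusted p = 0.614) became 3.19 without WT replicate 1 and 0.46 without WT replicate 2.

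Klra5 (gene identifier 16636), which encodes the inhibitory receptor Ly49E, was the only member with both Ezh2-KO libraries below both WT libraries. It had 3.39 and 3.56 CPM in Ezh2-KO CD44+ NK1.1- cells, against 28.2 and 4.82 CPM in WT. Most of the difference came from WT replicate 1. The log2 fold change of -2.24 (SE 1.13, edgeR adjusted p = 0.414) was -0.47 without that library and -3.02 without WT replicate 2. With either WT replicate left out, Klra1, Klra3, Klra9 and Klra5 each passed the threshold, in fits that took their spread from the Ezh2-KO pair. Far more of all genes passed in those fits than with all libraries, so passing there did not set these 4 genes apart. At the NK1.1+ stage Klra5 measured 257 CPM in Ezh2-KO and 265 CPM in WT, a ratio of 0.973 (95% counting interval 0.936 to 1.01). Only 3 counts in Ezh2-KO and 11 in WT were seen in CD44- NK1.1- cells, a ratio of 0.278 with an interval of 0.0498 to 1.05.

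Klra6 (Ly49F), Klra7 (the inhibitory Ly49G) and Klra10 (Ly49J) overlapped between genotypes in CD44+ NK1.1- cells. Klra6 had 7.25 and 5.18 CPM in Ezh2-KO and 8.47 and 2.75 CPM in WT. Klra7 had 12.8 and 10.5 CPM in Ezh2-KO and 14.1 and 5.20 CPM in WT. Klra10 had 1.34 and 2.25 CPM in Ezh2-KO and 2.79 and 1.08 CPM in WT. Their log2 fold changes were 0.15, 0.27 and -0.10 (edgeR adjusted p = 0.925, 0.833 and 0.94), and each of these 3 changed sign without at least 1 library.

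The same genes stood further apart in CD44+ NK1.1+ cells. Klra6 had 127 CPM in Ezh2-KO and 40.3 CPM in WT, a ratio of 3.14. Klra7 had 319 CPM in Ezh2-KO and 95.9 CPM in WT, a ratio of 3.32. Klra10 had 20.9 CPM in Ezh2-KO and 14.1 CPM in WT, a ratio of 1.48. With 1 library each and the spread of the replicated groups, none of these passed the threshold (edgeR adjusted p = 0.631, 0.559 and 0.884). Of the 9 members, 1 (Klra4) was called higher in this subset, where 0.95% of genes were called and 0.79% called higher. The median log2 fold change was 1.32 over the members and -0.01 over all genes tested.

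Among CD44- NK1.1- cells 0 of 9 members were called by edgeR, where 0.239% of genes were called (0.181% higher) and 1247 genes had an unadjusted p under 0.05. No member was called by DESeq2 or limma-voom either. The family's counts were few, 360 in Ezh2-KO and 317 in WT. The fitted median was -0.23, and 0.22 over 8 members when those with 3 counts or fewer on a side entered at the ratio of their counts, against 0.01 over all genes. Klra3 had 120 counts in Ezh2-KO and 54 in WT, a ratio of 2.27 (1.63 to 3.18). Klra9 had 53 counts in Ezh2-KO and 20 in WT, a ratio of 2.70 (1.59 to 4.77).

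Whether the genotype effect differed between the CD44+ subsets was tested directly, as the effect in CD44+ NK1.1+ minus that in CD44+ NK1.1- cells. No gene was called by edgeR (0.0% of those tested), while 519 had an unadjusted p under 0.05 and DESeq2 called 28 genes. The largest member value was 2.20 for Klra5 (SE 1.74, edgeR adjusted p = 1.0), followed by 1.5 for Klra6 and 1.46 for Klra7. The standard errors of the members ran from 0.35 to 1.79. The same difference between the NK1.1- subsets, CD44+ minus CD44-, was called in 0 members and 0.0217% of genes, all higher.

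Klra2 (gene identifier 16633), which encodes Ly49B, known from myeloid cells, was nearly absent. It had 1 count in each of Ezh2-KO CD44+ NK1.1- replicate 1, Ezh2-KO CD44+ NK1.1+ and WT CD44- NK1.1-, and 0 counts in the other 5 libraries. It was not tested, and these counts lie under the limit of 3 counts. Myeloid markers summed to 2.52 to 11.3 CPM in Ezh2-KO and 3.83 to 8.97 CPM in WT libraries.

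The make-up of the family was read as each gene's share of all Ly49 counts in a library. Klra5 took 0.854% and 0.953% of the Ly49 counts in Ezh2-KO CD44+ NK1.1- cells, against 10.1% and 4.09% in WT. In CD44+ NK1.1+ cells its share was 8.56% in Ezh2-KO (exact 95% interval 8.34 to 8.79) and 20.7% in WT (20.2 to 21.2). The level of Klra5 there was nearly equal, at 257 CPM in Ezh2-KO and 265 CPM in WT. Its lower share thus came with the larger sum of the family, 3006 CPM in Ezh2-KO and 1277 CPM in WT. Klra8 showed the opposite order of shares. It took 5.92% and 6.14% of Ly49 counts in Ezh2-KO CD44+ NK1.1- cells, against 0.970% and 0.329% in WT. In CD44+ NK1.1+ cells the share of Klra8 was 5.65% in Ezh2-KO (5.46 to 5.83) and 1.53% in WT (1.39 to 1.69).

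Klra1 and Klra9, the 2 most abundant genes by counts, had nearly the same shares in both genotypes in CD44+ NK1.1+ cells. Klra1 took 29.6% in Ezh2-KO and 28.4% in WT, and Klra9 took 30.2% in Ezh2-KO and 28.4% in WT. In CD44+ NK1.1- cells Klra1 took 44.6% and 45.1% in Ezh2-KO, against 43.1% and 66.7% in WT. The Ezh2-KO values lie between those of WT, so no difference exceeding the spread was seen.

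**Figure D3:**
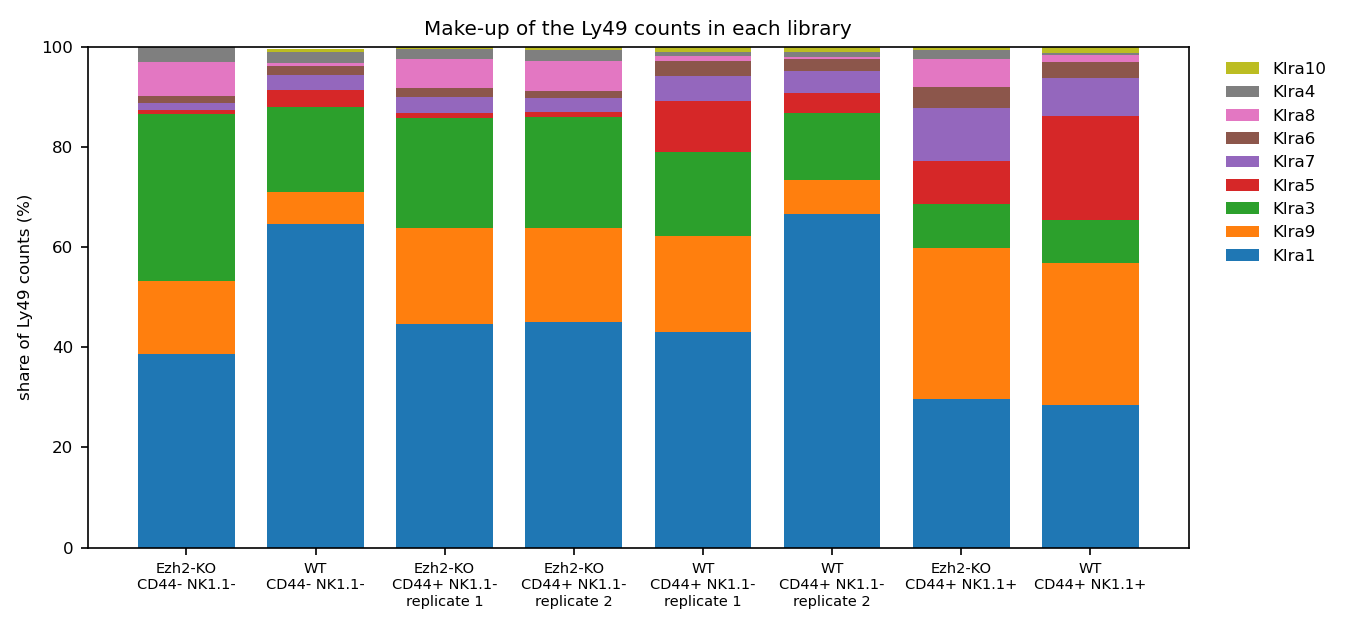
Share of Ly49 counts taken by each gene in each of the 8 libraries, in percent, stacked (Klra2, with at most 1 count, is not drawn). In CD44+ NK1.1+ cells Klra5 takes 8.56% in Ezh2-KO against 20.7% in WT, and Klra8 takes 5.65% in Ezh2-KO against 1.53% in WT. The level of Klra5 there is 257 CPM in Ezh2-KO and 265 CPM in WT.

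Levels of different genes were compared per kilobase of counted length, as CPM per kilobase. In Ezh2-KO CD44+ NK1.1- cells the order was Klra1 (103), Klra3 (65.7), Klra9 (61.4), Klra8 (19.7), Klra7 (9.40), Klra4 (8.06), Klra6 (5.57), Klra5 (3.01) and Klra10 (2.18), and only Klra3 and Klra9 overlapped. In WT CD44+ NK1.1- cells Klra1 (59.6) stood apart, and each later neighbour overlapped the next, from Klra9 (25.7), Klra3 (24.2) and Klra5 (14.3) down to Klra4 (1.78) and Klra8 (1.31). Klra8 thus stood at rank 4 in Ezh2-KO and at rank 9 in WT. Overlap was judged on ranges across the replicates. Within single libraries, Klra3 lay above Klra9 in both Ezh2-KO replicates. In both WT replicates Klra3 lay above Klra5, Klra7 above Klra6 and Klra6 above Klra10.

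Among CD44+ NK1.1+ cells Klra9 led in both genotypes, at 759 CPM per kilobase in Ezh2-KO and 304 in WT. Klra5 stood at rank 4 in Ezh2-KO (223) and at rank 2 in WT (229). Klra4 stood at 51.9 in Ezh2-KO, above Klra10 (25.4), and at 5.81 in WT, below Klra10 (17.2). These orders rest on 1 library each.

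The step to the NK1.1+ stage was tested over both genotypes. Of 9 members, 7 rose in CD44+ NK1.1+ against CD44+ NK1.1- cells as the mean of both genotypes, and none fell. The share of genes called higher was 16.4%, with 32.5% called in either direction. The median log2 fold change of the members was 3.27, against 0.00 over all genes tested. With library size in place of TMM the median of all genes moved to -0.13, far less than the change of the members.

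Klra5 had the steepest step. It measured 257 CPM in Ezh2-KO CD44+ NK1.1+ cells against 3.39 and 3.56 CPM in Ezh2-KO CD44+ NK1.1- cells, 74.1 times higher. In WT it measured 265 CPM in CD44+ NK1.1+ cells against 28.2 and 4.82 CPM in CD44+ NK1.1- cells, 16.0 times higher than their mean. The fitted log2 fold change was 5.11 (SE 0.86, edgeR adjusted p = 0.0395). The call was lost with no filter on low counts (adjusted p = 0.0881), without Ezh2-KO CD44+ NK1.1- replicate 1 (0.27) or 2 (0.283), and in either genotype alone (0.077 in Ezh2-KO and 0.162 in WT). The step of Klra5 was 5.99 without WT CD44+ NK1.1- replicate 1 and 4.72 without WT replicate 2.

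Klra1, Klra4 and Klra10 were called whichever CD44+ NK1.1- library was left out, and in each genotype alone. Klra4 rose by 2.20 (SE 0.18, edgeR adjusted p = 0.000986), Klra1 by 2.12 (SE 0.16, adjusted p = 0.00101) and Klra10 by 3.20 (SE 0.35, adjusted p = 0.00288). Klra7 rose by 4.05 (adjusted p = 0.00809), Klra6 by 3.60 (0.0121) and Klra8 by 3.27 (0.0268). These 3 calls were lost without either Ezh2-KO CD44+ NK1.1- replicate (adjusted p between 0.0775 and 0.252), and also in WT alone (0.0545 for Klra7, 0.0848 for Klra6 and 0.0956 for Klra8). Klra8 was also not called with no filter on low counts (0.0767) or in Ezh2-KO alone (0.081).

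Klra3 and Klra9 were not called at this step. Klra3 had a log2 fold change of 1.74 (SE 0.49, edgeR adjusted p = 0.0845) and Klra9 of 3.60 (SE 0.87, adjusted p = 0.0765). DESeq2 (adjusted p = 0.0183 and 0.000483) and limma-voom (0.0159 and 0.00741) called both. Leaving out WT CD44+ NK1.1- replicate 1 gave 2.24 for Klra3 and 4.57 for Klra9, and leaving out WT replicate 2 gave 1.45 and 3.20.

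**Figure D4:**
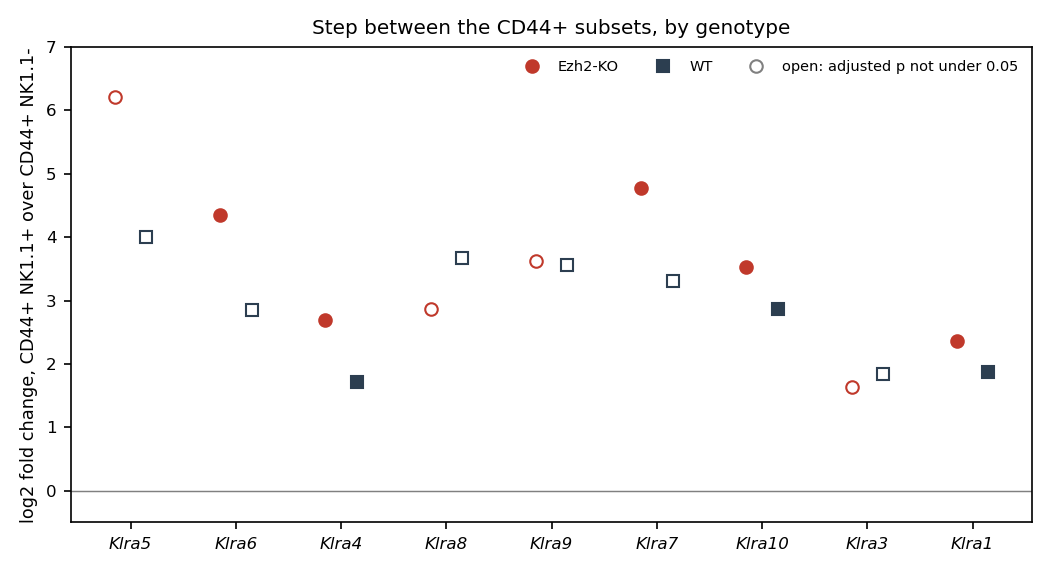
Log2 fold change of CD44+ NK1.1+ over CD44+ NK1.1- cells for 9 Ly49 genes, fitted within Ezh2-KO (circles) and within WT (squares), where filled points passed an edgeR adjusted p of 0.05. All points lie above 0, with Klra5 highest at 6.21 in Ezh2-KO and 4.0 in WT.

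At the earlier step, CD44+ NK1.1- against CD44- NK1.1- cells, 3 of 9 members rose and none fell, where 1.59% of genes were called higher and 2.66% in either direction. Klra1 rose by 4.09 (SE 0.23, edgeR adjusted p = 0.00183) and Klra4 by 3.19 (SE 0.29, adjusted p = 0.00573). Klra4 was not called in WT alone (2.43, adjusted p = 0.0643). The third was Klra10 (edgeR adjusted p = 0.0441), which had 0 counts in Ezh2-KO and 2 in WT CD44- NK1.1- cells. Against the limit of 3 counts in that library it was at least 13.0-fold higher in Ezh2-KO CD44+ NK1.1- cells, and in WT there were 87 counts in the CD44+ NK1.1- pair. Its call was lost with no filter (adjusted p = 0.0535), with limma-voom (0.111), and without Ezh2-KO CD44+ NK1.1- replicate 1 (0.0817) or 2 (0.103), and in either genotype alone (0.252 in Ezh2-KO and 0.156 in WT).

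DESeq2 called all 9 tested members at this step, where it called 474 of 13794 genes, 342 of them higher. The median log2 fold change was 4.54, or 4.25 with members of 3 counts or fewer at the ratio of their counts, against 0.00 over all genes tested. Summed, the family was 23.3 times higher in Ezh2-KO and 13.9 times higher in WT CD44+ NK1.1- cells than in CD44- NK1.1- cells. The WT value was 8.26 without WT CD44+ NK1.1- replicate 1 and 19.6 without WT replicate 2.

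Adaptor and phosphatase genes, not all of them particular to Ly49 receptors, were read beside the family. Tyrobp, which encodes DAP12, had 0.429 and 0.405 CPM in Ezh2-KO CD44+ NK1.1- cells, against 1.98 and 0.903 CPM in WT, with a log2 fold change of -1.77 (edgeR adjusted p = 0.0998). Leaving out WT replicate 1 gave -1.10 for Tyrobp (adjusted p = 0.0594), whereas leaving out WT replicate 2 gave -2.23 (adjusted p = 6.49e-08) with the spread of the Ezh2-KO pair alone. The NK1.1+ libraries had 11.8 CPM in Ezh2-KO and 9.94 CPM in WT. The rise to that stage was 3.8 (SE 0.30, adjusted p = 0.000899). In Ezh2-KO CD44+ NK1.1- cells Klra4 and Klra8 thus lay above WT. Tyrobp, whose product the activating receptors pair with, lay below WT without passing the threshold when all libraries were used.

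Of 7 adaptor and phosphatase genes, 1 rose and none fell between genotypes in CD44+ NK1.1- cells, where 4.94% of genes were called and 3.78% called higher. This was Cd247, the zeta chain of the T cell receptor complex, with 0.82 (edgeR adjusted p = 0.00747, but 0.11 without Ezh2-KO CD44+ NK1.1- replicate 1 and 0.134 without replicate 2). Cd247 rose by 0.66 over the 3 subsets (adjusted p = 0.00796) and Inpp5d, the phosphatase SHIP1, fell (-0.30, adjusted p = 0.0131), in a fit that called 11.3% of genes. The fall of Inpp5d was not called once Ezh2-KO CD44+ NK1.1- replicate 1 (adjusted p = 0.0529) or 2 (0.0712) was left out. Toward CD44+ NK1.1+ cells 5 of the 7 rose and 1 fell, where 16.4% of genes were called higher and 32.5% in either direction. Fcer1g rose by 4.79 (adjusted p = 0.021, but 0.165 and 0.182 without those replicates), Ptpn6, the phosphatase SHP-1, by 0.66 (adjusted p = 0.00252), and Cd247 fell by 0.58 (-0.58, adjusted p = 0.00441).

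Genes for MHC class I, not all of which encode ligands of the family, did not pass the threshold between genotypes in any subset (0 of 5). Over all genes, 4.94% were called in CD44+ NK1.1-, 0.95% in CD44+ NK1.1+ and 0.239% in CD44- NK1.1- cells. All 5 had log2 fold changes above 0 in each subset, with medians of 0.12, 0.09 and 0.16 in that order. In CD44+ NK1.1- cells the median was 0.34 without WT replicate 1 and 0.01 without WT replicate 2. Toward CD44+ NK1.1+ cells 4 of 5 rose, against 16.4% of genes called higher and 32.5% called in either direction. Fewer passed without either Ezh2-KO CD44+ NK1.1- replicate, though the median log2 fold change stayed at 0.74. H2-K1 rose by 1.09 (edgeR adjusted p = 0.00228), with 3318 CPM in Ezh2-KO and 3111 CPM in WT CD44+ NK1.1+ cells.

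The neighbouring lectin-like receptors of the NK gene complex were compared with the Ly49 genes. In CD44+ NK1.1- cells 1 of 14 rose with Ezh2 loss and none fell, against 4.94% of genes called and 3.78% called higher. The median log2 fold change was 0.80 in the Ly49 members and -0.95 in these 14, of which 3 lay above WT. Without WT replicate 1 the medians were 1.17 in the Ly49 members and 0.27 in the 14, with 9 of the 14 above WT. Without WT replicate 2 they were 0.46 and -1.45, with 3 of the 14 above WT, so the sign of the second median turned on WT replicate 1. The 1 was Klrb1b, which encodes an inhibitory receptor, with 14.5 and 14.1 CPM in Ezh2-KO and 9.69 and 8.39 CPM in WT (log2 fold change 0.67, edgeR adjusted p = 0.0438, but 0.423 without Ezh2-KO replicate 1 and 0.398 without replicate 2). Klrk1, which encodes NKG2D, had 56.3 and 51.9 CPM in Ezh2-KO and 123 and 35.4 CPM in WT. No test of the difference between these lists was made. All 14 lay above WT in CD44+ NK1.1+ cells, with a median log2 fold change of 1.32 in the Ly49 members and 0.72 in the 14. Of these, 2 were called higher there, Klrb1b (1.20, edgeR adjusted p = 0.0464) and Klri1 (2.93, adjusted p = 0.0354), against 0.95% of genes called and 0.79% called higher. Both calls were lost without either Ezh2-KO CD44+ NK1.1- replicate (adjusted p between 0.12 and 0.246). Toward that stage 12 of the 14 rose, where 16.4% of genes were called higher and 32.5% in either direction. The 12 include Klrb1c, whose product NK1.1 defines the subset, so its rise was set by how the subsets were chosen. Fewer of the 14 passed without either Ezh2-KO CD44+ NK1.1- replicate. Their median log2 fold change was 3.81 with all libraries, 3.89 without replicate 1 and 3.76 without replicate 2.

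Of 12 transcription factor genes tied to Ly49 expression or to NK and NKT1 cells, 1 rose and 3 fell in Ezh2-KO CD44+ NK1.1- cells, where 4.94% of genes were called and 3.78% called higher. Eomes, a factor of NK cells, had 27.2 and 26.0 CPM in Ezh2-KO and 0.451 and 0.516 CPM in WT (log2 fold change 5.76, edgeR adjusted p = 0.0002). Tbx21, the T-bet gene, fell by 1.29 (-1.29, edgeR adjusted p = 0.00342), Runx3 by 0.86 (-0.86, adjusted p = 0.0247) and Id2 by 0.49 (-0.49, adjusted p = 0.0353). These 3 falls were not called without either Ezh2-KO replicate, with adjusted p between 0.0548 (Tbx21) and 0.478 (Id2), whereas Eomes was called whichever CD44+ NK1.1- library was left out. Tcf7, whose product TCF-1 is needed for Ly49A expression in mouse NK cells, had 1341 and 1262 CPM in Ezh2-KO and 1037 and 1125 CPM in WT. It was called over the 3 subsets (0.31, adjusted p = 0.0466), but not without Ezh2-KO CD44+ NK1.1- replicate 1 (adjusted p = 0.152) or 2 (0.117), WT CD44+ NK1.1- replicate 2 (0.0635), either CD44+ NK1.1+ library (0.134 each) or the WT CD44- NK1.1- library (0.0539). Toward CD44+ NK1.1+ cells 6 of the 12 rose, where 16.4% of genes were called higher and 32.5% in either direction. Prdm1 and Tbx21 rose by the most (2.67 and 2.31), and Tcf7 fell (-1.25, adjusted p = 0.000714).

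Markers of NK or innate lymphoid cells were read beside the Ly49 genes, since such cells express the family. The 8 markers summed to 99.4 and 107 CPM in Ezh2-KO CD44+ NK1.1- cells, against 79.8 and 33.2 CPM in WT. In CD44+ NK1.1+ cells the sum was 772 CPM in Ezh2-KO and 589 CPM in WT, and in CD44- NK1.1- cells 80.2 CPM in Ezh2-KO and 29.3 CPM in WT. Eomes and Gzma, which NKT cells can also express, made up most of the Ezh2-KO sums in CD44+ NK1.1- cells. Of the 7 markers tested, 3 had a log2 fold change above 0 there, and the median was -0.34. In CD44+ NK1.1+ cells 5 of the 7 did, with a median of 0.57, and in CD44- NK1.1- cells 3 did, with a median of 0.0. Within CD44+ NK1.1- cells Gzma had 60.0 and 67.5 CPM in Ezh2-KO and 44.9 and 17.6 CPM in WT. Itga1 had 1.19 and 0.990 CPM in Ezh2-KO and 12.7 and 1.12 CPM in WT, with WT replicate 1 alone high. Prf1 had 2.39 and 2.48 CPM in Ezh2-KO and 9.11 and 4.30 CPM in WT. Itga2 had 7.39 and 8.10 CPM in Ezh2-KO and 10.9 and 8.77 CPM in WT. Ncr1, which encodes the NK receptor NKp46, had 0.0477 and 0 CPM in Ezh2-KO and 0.225 and 0 CPM in WT CD44+ NK1.1- cells, at or near the level of 1 to 5 counts. It measured 6.79 CPM in Ezh2-KO and 4.73 CPM in WT CD44+ NK1.1+ cells. Cma1 was at 0 in all CD44+ NK1.1- and CD44- NK1.1- libraries.

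B cell markers summed to at most 4.78 CPM in Ezh2-KO and 4.0 CPM in WT libraries, and dendritic cell markers to at most 10.5 CPM in any library. Immature thymocyte markers reached 46.0 CPM in Ezh2-KO and 63.8 CPM in WT libraries. Gamma-delta T cell genes summed to 571 and 556 CPM in Ezh2-KO and 295 and 308 CPM in WT CD44+ NK1.1- cells. Trdc, Trgc1 and Sox13 were each called higher there (edgeR adjusted p = 0.00855, 0.0173 and 0.00163), where 4.94% of genes were called and 3.78% called higher. Trdc and Trgc1 lost their calls without Ezh2-KO replicate 1 (adjusted p = 0.0573 and 0.258) or replicate 2 (0.0566 and 0.218). In CD44- NK1.1- cells the gamma-delta T cell genes summed to 799 CPM in Ezh2-KO and 773 CPM in WT. The sums in CD44+ NK1.1+ cells were 558 CPM in Ezh2-KO and 313 CPM in WT. The 3 erythroid genes summed to 0.360 to 49.8 CPM in Ezh2-KO and 0.629 to 1.08 CPM in WT libraries. The part of any of these marker genes in the Ly49 levels was not tested.

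The genes whose pattern over the 8 libraries was most like that of the summed family were Klrb1b, Samd3 and Klrk1. The measure was the root mean square difference of centred log2(CPM + 0.5), and it came to 0.38, 0.84 and 0.90 among 13387 genes. For Klra4 the closest were Plek (0.47), Ret (0.64) and Ccl3 (0.67), and for Klra8 Plek (1.16), Ccl3 (1.19) and Ret (1.20). Plek had 13.3 and 14.5 CPM in Ezh2-KO CD44+ NK1.1- cells, against 5.14 and 2.58 CPM in WT, and 69.4 CPM in Ezh2-KO and 22.1 CPM in WT CD44+ NK1.1+ cells.

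Klra5 was closest to another set, Itga1 (0.48), Styk1 (0.55) and Klre1 (0.65). Itga1, which encodes an integrin of tissue-resident lymphocytes, had 1.19 and 0.990 CPM in Ezh2-KO CD44+ NK1.1- cells, against 12.7 and 1.12 CPM in WT, with WT replicate 1 alone high. It had 74.7 CPM in Ezh2-KO and 136 CPM in WT CD44+ NK1.1+ cells. Klra1 was closest to Klrb1b (0.30), Klra6 to Klrk1 (0.51) and Klra10 to Ifitm10 (0.45). All these patterns share the same 8 libraries.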

How the data were processed

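RNA-seq was made from 8 libraries of thymic NKT cells, each sequenced on 4 lanes, with TruSeq RNA kits per the labels. The deposited values are whole-number read counts per gene. The submitters' processing notes name CASAVA, Subread 1.4.3-p1, featureCounts and the mm10 build, without the role of each. The sources used here name no annotation, strand setting or read length. The gene length that the authors deposited beside the counts was used for levels per kilobase. The 8 single-library files held the same counts as the series table.

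Of 27179 genes, 25275 matched a symbol in RefSeq, whose positions are given, and 13794 passed filterByExpr. Tests used edgeR 4.0.16 in R 4.3.3 (TMM, glmQLFit with robust=TRUE, quasi-likelihood F test, Benjamini-Hochberg over all genes tested, called at an adjusted p under 0.05). One model gave 6 group means (2 residual degrees of freedom, coefficient of variation 0.141), and single libraries were assumed to vary like the replicated groups. The other added subset and genotype (4 residual degrees of freedom). The self-test on simulated counts ran before the fits. Replicates were biological per the series design text, and the sources used here do not say which subsets share animals. Counts within each pair differed beyond sampling noise (chi-square per degree of freedom 6.39 in Ezh2-KO and 44.7 in WT).

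Shared transcript stretches were counted in GENCODE transcripts. Alternatives were RLE or library-size scaling, other filters, DESeq2 1.42.0, limma-voom (limma 3.58.1), libraries left out, single genotypes, only the CD44+ NK1.1- libraries, and averaged genotype effects. Leaving out libraries for the other gene lists and for the summed family was chosen after seeing the data. Named were all members, other Klra genes, called genes of the fixed lists, and the 3 genes nearest in pattern. A few genes were named for comparison outside that rule, namely Tyrobp, Klrk1, Tcf7, Ncr1, Cma1, Gzma, Klrb1c, Trdc, Trgc1 and Sox13. The members and lists were chosen with earlier results of these data known.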

Additional observations from a re-analysis of the deposited data

Results flagged for a closer look

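Klra1 lay below WT in one Ezh2-KO subset and above WT in the others. In CD44- NK1.1- cells it had 139 counts in Ezh2-KO and 205 in WT, a ratio of 0.691 (95% counting interval 0.553 to 0.861), with 1 library each. The ratio was 1.74 in CD44+ NK1.1- cells, where both Ezh2-KO libraries were above both WT libraries, and 2.46 in CD44+ NK1.1+ cells. The difference of the genotype effect between the NK1.1- subsets, a comparison added after the data were seen, was 1.33 (SE 0.39, edgeR adjusted p = 0.772). The difference between CD44+ NK1.1+ and CD44- NK1.1- cells was not tested.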

How the results depend on the processing

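No paired analysis was possible because the labels carry no replicate numbers. With 1 library left out, genes called and members called ranged from 101 to 5792 and 0 to 9 for Ezh2-KO against WT in CD44+ NK1.1- cells (682 and 1 with all libraries), 25 to 2437 and 0 to 8 in CD44+ NK1.1+ cells (131 and 1), 1 to 2486 and 0 to 4 in CD44- NK1.1- cells (33 and 0), and 489 to 2794 and 2 to 5 over the 3 subsets (1561 and 2). For CD44+ NK1.1+ against CD44+ NK1.1- cells they were 1519 to 8585 and 3 to 9 (4479 and 7), and for CD44+ NK1.1- against CD44- NK1.1- cells 83 to 4394 and 2 to 9 (367 and 3). For the difference of effects between the CD44+ subsets they were 0 to 2634 and 0 to 8 (0 and 0), and between the NK1.1- subsets 1 to 3063 and 0 to 3 (3 and 0). The high counts came without a WT CD44+ NK1.1- replicate, when in the 6-group model the Ezh2-KO pair alone gives the spread. Gene calls mostly fell without an Ezh2-KO CD44+ NK1.1- replicate, when in that model the WT pair alone gives it. Calls lost in that way were thus lost among genes at large, not only in the genes named here.

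DESeq2 called 3 members and 653 genes in CD44+ NK1.1- cells, and 2 members and 197 genes in CD44+ NK1.1+ cells. It called 94 genes in CD44- NK1.1- cells, and 9 members and 474 genes between CD44+ NK1.1- and CD44- NK1.1- cells. For each difference of effects it called 28 genes. limma-voom called 2 members and 560 genes in CD44+ NK1.1- cells, 20 genes in CD44+ NK1.1+ cells and 7 genes in CD44- NK1.1- cells. Over the 3 subsets it called 4 members and 1549 genes. With no filter 233 genes were called in CD44+ NK1.1+ and 87 in CD44- NK1.1- cells, 1 for the difference between the CD44+ subsets and 24 between the NK1.1- subsets, where at least 1 CPM in 2 libraries left 1. Averaged genotype effects called 951 genes and 1 member over the 3 subsets. Between the CD44+ subsets, Ezh2-KO alone called 2565 genes, and WT alone 1416 genes and 3 members. Between the NK1.1- subsets, Ezh2-KO alone called 68 genes and 2 members, and WT alone 265 genes and 1 member. The cause of these shifts was not tested.

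Signs changed in 23 member and pseudogene values. With 1 library left out in CD44+ NK1.1- cells, Klra6 ranged from -0.45 to 1.17 (also -0.11 without Ezh2-KO replicate 1), Klra7 from -0.28 to 1.16 and Klra10 from -0.63 to 0.74 (0.22 without Ezh2-KO replicate 1), and limma-voom gave Klra10 0.021. Over the 3 subsets Klra10 ranged from -0.19 to 0.58 (-0.06 without WT CD44+ NK1.1- replicate 2, -0.18 without WT CD44+ NK1.1+), and was -1.19 with averaged effects. The low and high ends mostly came without a WT CD44+ NK1.1- replicate. For the difference between the CD44+ subsets, the ranges were -1.19 to 0.38 for Klra3, -2.77 to 0.018 for Klra8, -1.87 to 0.87 for Klra9, -0.18 to 1.20 for Klra10 and -1.87 to 0.17 for Klra13-ps, and limma-voom gave Klra9 -0.52. For that between the NK1.1- subsets they were -0.32 to 1.26 for Klra3, -1.22 to 1.33 for Klra5, -0.22 to 1.4 for Klra6, -0.43 to 2.35 for Klra8, -0.97 to 1.77 for Klra9 and -0.69 to 4.31 for Klra14-ps, and limma-voom gave Klra9 0.43. Depth limits the members in CD44- NK1.1- cells, where 3 of the 9 tested had 3 counts or fewer in a library.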
